A study of Mus musculus with 12 samples.

Results

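The genes described here regulate histone acetylation outside the MYST family, to which the targeted gene Kat6b belongs: deacetylases, acetyltransferases, bromodomain readers and corepressors. They were chosen by name, as a list of 38 gene symbols matched to the array annotation. The choice was made with earlier results of these data known. Of the 38, 37 had a probe set with that name and 35 passed the filter for expression, out of 11449 genes that passed it. Ncor1 was not analysed here. Hdac10 and Sirt6 had a log2 value over 4 on 0 of 12 arrays (Hdac10 from 2.51 to 3.58 on the brighter of its 2 probe sets, Sirt6 from 2.49 to 3.85) and were not tested. The members thus make up 35 tested genes in 8 role groups.

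The study measured RNA on expression arrays in 4 groups of 129/Sv mice with 3 arrays each, to look for genes that depend on Kat6b (also called Qkf or Myst4). The groups were dorsal cerebral cortex of adult Qkf gt/gt mutants, dorsal cortex of adult wild types, dorsal telencephalon of Qkf gt/gt mutants at E12.5, a mid-gestation stage of neurogenesis, and dorsal telencephalon of wild types at E12.5. The mutants carry a gene trap on both alleles of Kat6b in the whole animal, and the wild types have none. The adults were males of 155, 112 and 99 days among mutants and of 155, 112 and 101 days among wild types. No sex was labelled for the embryos. The embryos came from 2 parental crosses, with mutant 1 and wild type 1 from the first and the other 4 from the second.

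Acetyl groups are placed on histone tails by acetyltransferases, removed by deacetylases and bound by bromodomain proteins, and acetylated chromatin is as a rule open to transcription. The class I deacetylases Hdac1, Hdac2 and Hdac3 work inside the SIN3, NuRD, CoREST and NCoR corepressor complexes. Class IIa deacetylases bind MEF2 transcription factors and move between nucleus and cytoplasm, and sirtuins use NAD as a cosubstrate. In the developing cortex these complexes take part in the passage from dividing progenitors to neurons, and in adult neurons CBP, p300 and class IIa deacetylases take part in the response of genes to activity.

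The values are log2 expression values after GCRMA, with a floor of 2.19, and array medians ran from 3.64 to 3.74. Kat6b checked the labels: its values were 7.25, 7.17 and 6.92 in adult mutants against 9.68, 9.35 and 9.72 in adult wild types (log2 difference -2.47, adjusted p = 0.017 by limma), and 6.22, 7.24 and 7.72 in embryonic mutants against 11.28, 11.40 and 11.42 in embryonic wild types (-4.31, adjusted p = 0.00019). Marker lists matched the labelled tissues: the mean over 9 mature neuron markers was 12.61 to 12.79 on adult arrays and 5.21 to 5.64 on embryonic arrays, and that over 9 markers of progenitors and cycling cells was 4.87 to 4.95 on adult and 11.29 to 11.47 on embryonic arrays, with Nes, Mki67, Top2a and Cdk1 under 3 in adults. Markers of myelin (10.12 to 10.65 against 3.74 to 4.22), astrocytes (10.60 to 10.82 against 5.06 to 5.78) and microglia (7.96 to 8.61 against 4.26 to 5.12) were higher on adult arrays. The mean over the 3 measured of 6 erythroid markers was lower (2.73 to 3.61 against 11.15 to 12.02). Of these 3 markers 2, the globin genes Hbb-y and Hba-x, averaged under 3 in adults. Whether the samples differed in blood content was not tested. A control for RNA quality, the 3 prime minus 5 prime difference of actin, was 1.91, 1.47 and 1.09 in adult mutants, 1.06 to 1.13 in adult wild types and 0.71 to 1.03 in embryos. The same difference of Gapdh was 0.26, -0.06 and -0.11 in adult mutants, -0.15 to -0.08 in adult wild types and -0.19 to -0.03 in embryos. Xist, expressed from the inactive X of females, was high in embryonic mutant 3 and embryonic wild types 1 and 2. Markers of ventral telencephalon and striatum were highest among embryos in those of the first cross (5.81 in mutant 1 and 6.29 in wild type 1, against 3.12 to 4.73 in the other 4).

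Adult cortex and E12.5 telencephalon differed in most of these genes. In wild types 30 of the 35 members passed the test between the stages (85.7%, against 81.4% of all genes tested), 11 of them higher and 19 lower in adults, where 38.4% of all genes were higher and 43.0% lower. The median log2 difference of the 35 was -0.54, against -0.08 over all genes. At least 2-fold differences past the test were found for 8 members that were higher and 14 that were lower in adults. All 4 class I deacetylases and, on the probe sets used, all 6 measured corepressors were lower in adults (Sin3b and Mta3 turned to 1.17 and 1.30 in wild types without probe sets marked as matching several transcripts), 3 of 4 class IIa deacetylases were higher, and the sirtuins divided into 4 higher and 2 lower. The adult and embryonic wild-type arrays did not overlap for 32 members (91.4%, against 84.5% of all genes). The adult arrays form an array set of their own, so that stage and array set cannot be told apart, and in tissue samples fewer cells of a type and less RNA per cell cannot be told apart either.

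**Figure D1:**
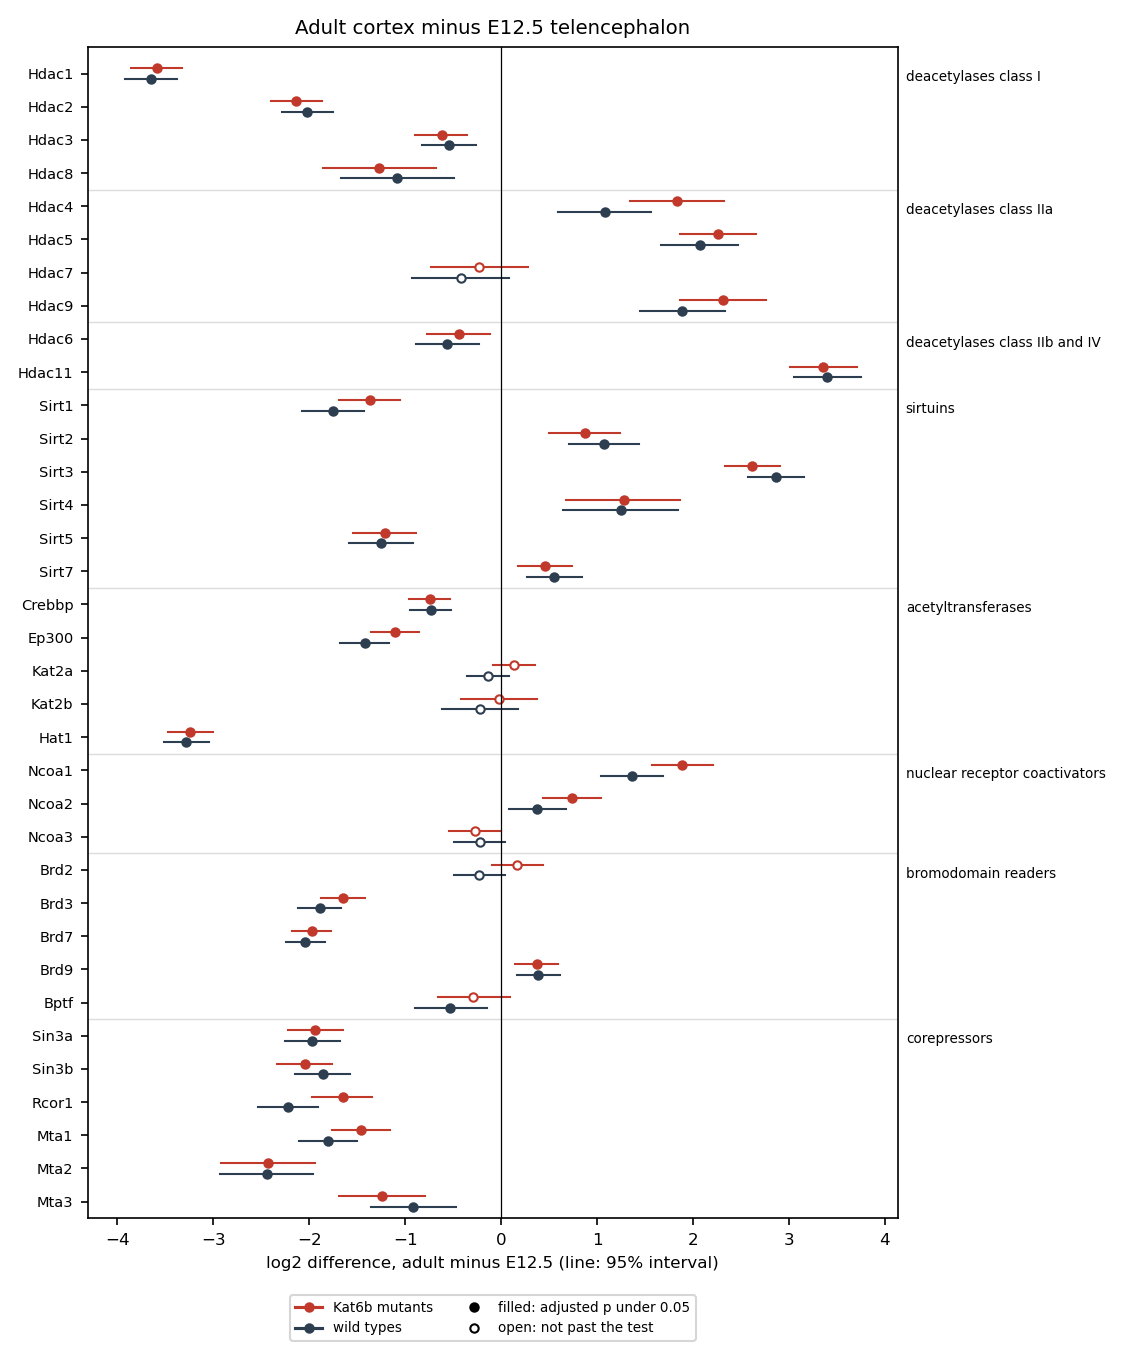
Log2 difference, adult cortex minus E12.5 telencephalon, of the 35 tested members by role group, for Kat6b mutants (red) and wild types (dark). Points are limma estimates, lines are 95% intervals, and filled points passed an adjusted p under 0.05. On the probe sets used, the 4 class I deacetylases and the 6 corepressors lie left of zero in both genotypes, though other probe sets of Sin3b and Mta3 do not, and Hdac11 and Sirt3 lie farthest to the right.

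Upstream sequences are shown for the members with large differences in each direction for which RefSeq (assembly GRCm38.p6) listed a window, so that the promoters of genes higher and lower in adults can be read side by side. Of the 35 tested members 30 had a window. Each line gives the 250 bases before the annotated start, 5′ to 3′ on the gene's strand. Capitals mark matches, on either strand, to the motifs searched that occur there: the CCAAT box (CCAAT), the GC box (GGGCGG), the ETS-type motif (CCGGAAGT) and the E-box (CACGTG). Hdac11 (chr6:91156565-91156814, plus strand) and Sirt3 (chr7:140882310-140882559, minus strand, the first of 2 windows) were higher in adults, and Hat1 (chr2:71389010-71389259, plus strand) and Mta2 (chr19:8941670-8941919, plus strand) were lower. The other Sirt3 window, not printed here, held a CCAAT box and a GC box, and the printed one holds neither.
Hdac11: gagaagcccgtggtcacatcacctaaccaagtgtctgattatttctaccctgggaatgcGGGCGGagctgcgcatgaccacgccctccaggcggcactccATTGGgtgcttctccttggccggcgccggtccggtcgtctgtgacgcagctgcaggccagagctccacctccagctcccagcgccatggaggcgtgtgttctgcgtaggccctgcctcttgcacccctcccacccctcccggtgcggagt
Sirt3: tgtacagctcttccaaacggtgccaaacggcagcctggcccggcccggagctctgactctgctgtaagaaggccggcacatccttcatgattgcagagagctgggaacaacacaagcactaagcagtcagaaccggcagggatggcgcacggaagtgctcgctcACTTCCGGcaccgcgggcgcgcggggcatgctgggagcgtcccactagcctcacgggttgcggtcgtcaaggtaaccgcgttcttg
Hat1: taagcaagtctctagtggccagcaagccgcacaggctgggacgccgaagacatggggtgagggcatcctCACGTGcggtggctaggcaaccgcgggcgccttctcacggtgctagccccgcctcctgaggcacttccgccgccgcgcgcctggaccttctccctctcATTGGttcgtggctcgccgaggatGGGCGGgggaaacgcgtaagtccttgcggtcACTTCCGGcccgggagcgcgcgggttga
Mta2: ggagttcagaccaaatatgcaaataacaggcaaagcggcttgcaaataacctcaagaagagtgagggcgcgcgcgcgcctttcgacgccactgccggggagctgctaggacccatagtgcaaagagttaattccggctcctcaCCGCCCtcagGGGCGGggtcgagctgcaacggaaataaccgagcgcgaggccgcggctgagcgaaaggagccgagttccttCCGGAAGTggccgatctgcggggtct

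A GC box was found in 9 of 13 windows of members higher in adults (69.2%), in 16 of 17 windows of members lower in adults (94.1%) and in 32.7% of all 32851 windows of this length. The windows were also richer in G and C than most, with medians of 62.4% for members higher in adults and 67.6% for members lower in adults, against 52.4% over all windows, and a GC box is more frequent in GC-rich sequence. The CCAAT box stood in 38.5% of the windows of higher members, 41.2% of those of lower members and 33.8% of all windows. The ETS-type motif, in 2.88% of all windows, was in those of Sirt3, Hat1 and Mta2. The E-box, in 6.02% of all windows, was in those of Bptf, Hat1 and Sirt1, all lower in adults. A loose MEF2-type pattern (CTA and TAG with any 4 bases between them, in 3.2% of all windows) was found for Hdac5 and Hdac9, which were higher in adults. It was also found for Hdac2, which was lower. The TATA box (TATAAA, 12.4%) was found for Hdac9, Hdac8 and Sin3b. The E2F-type (TTTNGCGC, 1.13% of all windows), cAMP response element (TGACGTCA, 1.55%) and NRF1-type (GCGCA followed directly by TGCGC, 0.782%) motifs were found in 0 of these windows. A match is a run of letters in this window and was not tested as a binding site.

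Among the class I deacetylases Hdac1 had the largest difference of all 35 members. Its values were 7.51, 7.35 and 7.17 in adult mutants and 7.34, 7.49 and 7.11 in adult wild types, against 11.01, 11.0 and 10.79 in embryonic mutants and 10.95, 10.97 and 10.98 in embryonic wild types. The stages stood far apart and the genotypes within a stage overlapped. The log2 difference of Hdac1, adult minus embryo, was -3.59 in mutants and -3.65 in wild types (SE 0.12, adjusted p = 1.8e-10), where it was 12.6-fold lower in adults. Hdac2, which joins Hdac1 in the SIN3, NuRD and CoREST complexes, had 10.95, 10.8 and 10.56 in adult mutants and 10.98, 10.99 and 10.74 in adult wild types, against 12.91, 12.98 and 12.83 in embryonic mutants and 12.82, 12.97 and 12.97 in embryonic wild types. Hdac2 was 4.05-fold lower in adult wild types (-2.02, SE 0.12, adjusted p = 2.4e-08). The decrease was smaller for Hdac3, the deacetylase of the NCoR and SMRT complexes, with means of 8.88 ± 0.08 in adult and 9.42 ± 0.15 in embryonic wild types (SD, n = 3 each, -0.54, adjusted p = 0.0021). Hdac8 averaged 5.32 ± 0.20 and 6.40 ± 0.40 in the same groups (-1.08, adjusted p = 0.0029).

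Class IIa deacetylases went the other way, with the exception of Hdac7. Hdac5 had 8.96, 8.8 and 8.91 in adult mutants and 8.29, 8.75 and 8.67 in adult wild types, against 6.38, 6.49 and 7.01 in embryonic mutants and 6.37, 6.42 and 6.72 in embryonic wild types. The adult wild types were 4.20-fold higher (log2 difference 2.07, SE 0.18, adjusted p = 6.3e-07). Hdac9 had 9.34, 9.2 and 8.61 in adult mutants and 8.74, 9.13 and 8.96 in adult wild types, against 6.83, 6.85 and 6.52 in embryonic mutants and 6.95, 7.34 and 6.88 in embryonic wild types (3.70-fold higher in adult wild types, 1.89, SE 0.20, adjusted p = 3.7e-06). In both genes every adult array lay above every embryonic one. Hdac4 was 2.11-fold higher in adult wild types (7.07, 7.11 and 7.15, against 5.78, 6.07 and 6.26 in embryonic wild types, log2 difference 1.08, adjusted p = 0.00085). Over the mean of its 3 probe sets this difference was 0.46. A second probe set did not pass in wild types (0.31, adjusted p = 0.21 by limma) and passed in mutants (0.79, adjusted p = 0.0061). The third averaged 4.34 in adult and in embryonic wild types, near the filter of 4. Hdac7 did not pass the test, at 5.39 ± 0.09 in adult and 5.82 ± 0.27 in embryonic wild types (-0.42, 95% interval -0.93 to 0.08, adjusted p = 0.11). The MEF2 factors that class IIa deacetylases bind were higher in adults too, 3 of 3 measured, where 38.4% of all genes were higher: Mef2c at 14.35 ± 0.08 against 8.75 ± 0.66 (48.5-fold higher) and Mef2d at 9.69 ± 0.08 against 7.07 ± 0.26 (6.15-fold higher), in adult against embryonic wild types with n = 3 each.

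Hdac11, the one class IV deacetylase, had the largest difference upward. It measured 9.49, 9.64 and 9.81 in adult mutants and 9.81, 9.76 and 9.84 in adult wild types, against 6.16, 6.01 and 6.7 in embryonic mutants and 6.44, 6.46 and 6.33 in embryonic wild types. The level was 10.3-fold higher in adult mutants and 10.5-fold higher in adult wild types (log2 difference 3.40, SE 0.16, adjusted p = 2.8e-09) than in embryos of the same genotype. Hdac6, the cytoplasmic deacetylase of tubulin, was 1.47-fold lower in adult wild types (8.21 ± 0.14, against 8.77 ± 0.25 in embryonic wild types, n = 3 each, adjusted p = 0.0049). In mutants the difference was -0.44 (adjusted p = 0.018), and the call was lost without adult mutant 2 (-0.36) or embryonic mutant 1 (-0.38).

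The 6 tested sirtuins all passed the test between the stages, in both directions, where 81.4% of all genes passed in wild types. Sirt3, a mitochondrial deacetylase, had 9.39, 9.67 and 9.6 in adult mutants and 9.76, 9.5 and 9.76 in adult wild types, against 7.03, 6.86 and 6.93 in embryonic mutants and 7.04, 6.78 and 6.6 in embryonic wild types. It was 7.29-fold higher in adult wild types (log2 difference 2.87, SE 0.13, adjusted p = 2.5e-09). Sirt1, the nuclear sirtuin that deacetylates histones and transcription factors, ran the opposite way, with 8.08, 8.16 and 7.73 in adult mutants and 7.98, 7.74 and 7.79 in adult wild types, against 9.58, 9.36 and 9.14 in embryonic mutants and 9.7, 9.55 and 9.5 in embryonic wild types. Its level was 3.36-fold lower in adult wild types (-1.75, SE 0.14, adjusted p = 4.1e-07). The mitochondrial Sirt5 was 2.38-fold lower (6.46 ± 0.19, against 7.71 ± 0.15 in embryonic wild types, n = 3 each, adjusted p = 9.4e-06), whereas Sirt4, the other mitochondrial sirtuin, was higher (5.20 ± 0.38, against 3.95 ± 0.51, log2 difference 1.25, adjusted p = 0.0012), with an embryonic mean below the filter of 4 where differences are compressed. Sirt2, a largely cytoplasmic deacetylase known for its abundance in myelinating cells, was 2.10-fold higher in adult wild types (10.20 ± 0.14, against 9.13 ± 0.09, n = 3 each, adjusted p = 9.6e-05). Myelin markers were also higher on adult arrays (values above), and their part in the Sirt2 difference was not tested. The nucleolar Sirt7 was 1.47-fold higher (adjusted p = 0.002).

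**Figure D2:**
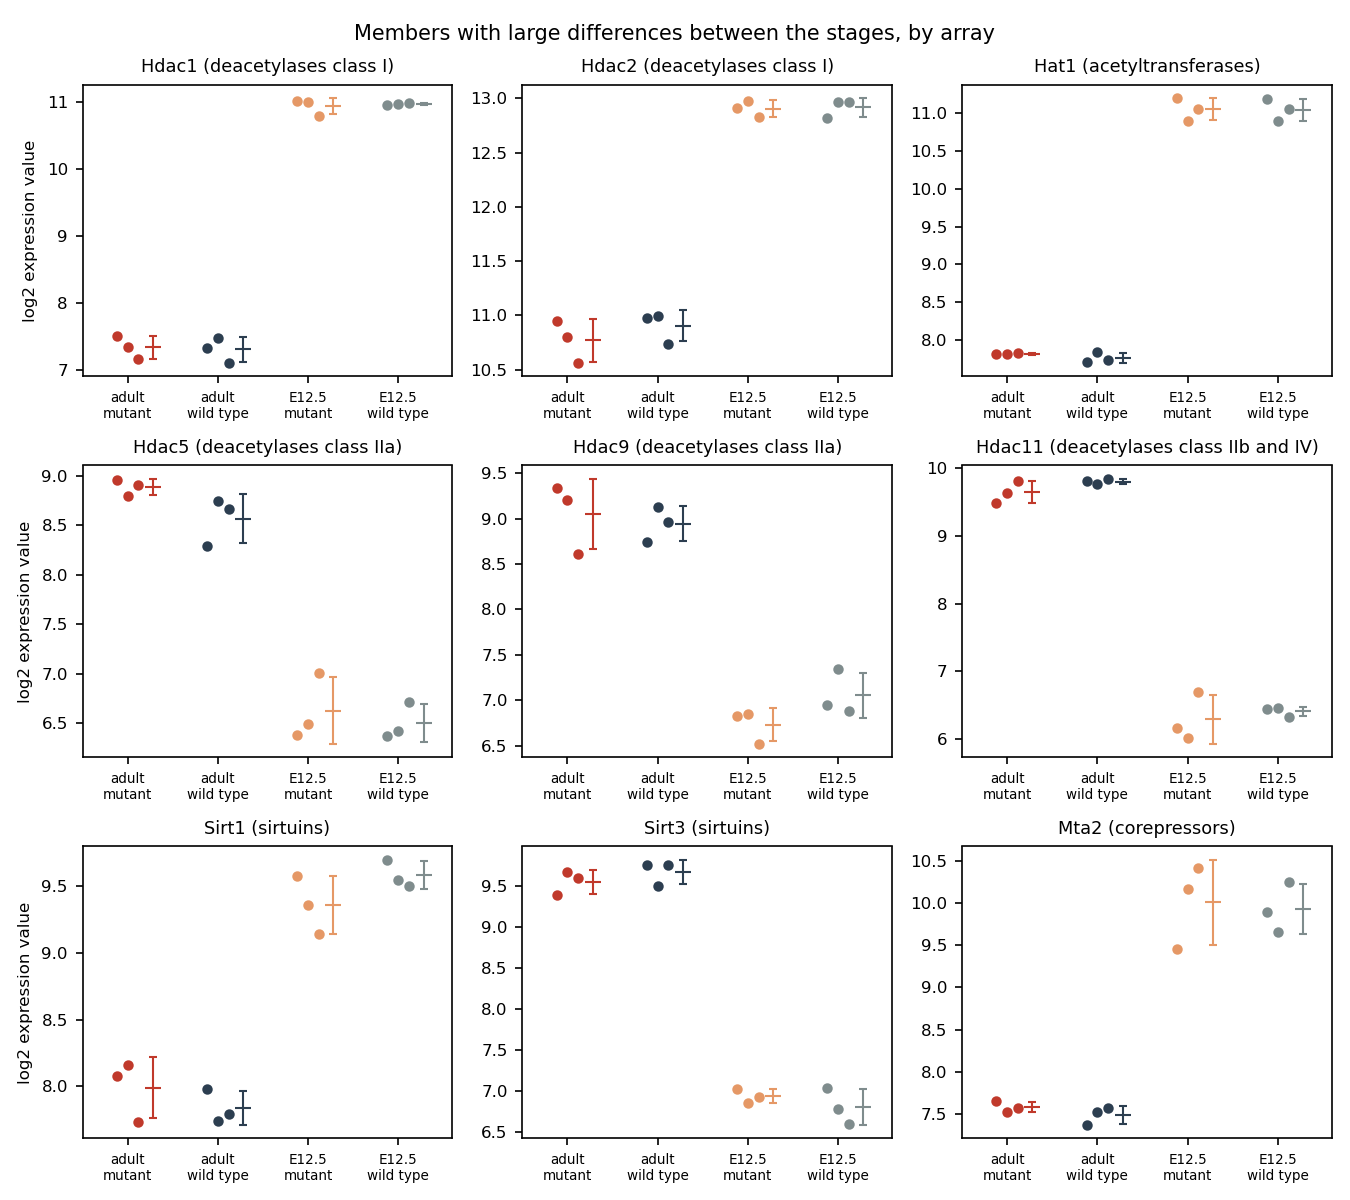
Log2 expression value on each array of 9 members with large differences between the stages, in adult Kat6b mutants, adult wild types, E12.5 mutants and E12.5 wild types. Points are arrays, and the bars beside them are mean and SD (n = 3). In each panel the adult and embryonic points stand apart, and each vertical axis has its own range and does not start at zero.

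Among the 5 acetyltransferases 3 were lower in adults and 0 higher, where 43.0% of all genes were lower and 38.4% higher in wild types. Hat1, which acetylates newly made histones before they enter chromatin, had 7.81, 7.81 and 7.83 in adult mutants and 7.71, 7.84 and 7.74 in adult wild types, against 11.2, 10.9 and 11.06 in embryonic mutants and 11.19, 10.89 and 11.05 in embryonic wild types. Its level was 9.43-fold lower in adult than in embryonic mutants and 9.70-fold lower in wild types (log2 difference -3.28, SE 0.11, adjusted p = 1.4e-10). On 4 of 6 adult arrays the Hat1 value was 7.81 to 7.84, and whether the probe set was at a low limit there was not tested. Ep300 and Crebbp encode p300 and CBP, paralogous acetyltransferases recruited by many transcription factors. Ep300 was 2.68-fold lower in adult wild types (8.83, 8.75 and 9.09, against 10.27, 10.38 and 10.3 in embryonic wild types, adjusted p = 3.2e-07), and Crebbp was 1.66-fold lower (10.23, 10.36 and 10.26, against 10.9, 11.06 and 11.07, adjusted p = 2.8e-05). Averaged over its probe sets Crebbp did not pass (-0.03 in wild types). Kat2a and Kat2b, the GCN5 and PCAF enzymes of the SAGA and ATAC complexes, did not pass the test. Kat2a averaged 9.49 ± 0.04 in adult and 9.62 ± 0.12 in embryonic wild types (-0.14, 95% interval -0.35 to 0.08, adjusted p = 0.21), and Kat2b 8.81 ± 0.20 and 9.03 ± 0.14 (-0.22, -0.62 to 0.18, adjusted p = 0.29). With the mean of its probe sets Kat2a passed (-0.29).

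Nuclear receptor coactivators of the p160 family were higher in adults for 2 of 3 genes, where 38.4% of all genes were higher in wild types. Ncoa1 had 11.27, 11.34 and 11.7 in adult mutants and 11.17, 11.02 and 11.32 in adult wild types, against 9.43, 9.7 and 9.52 in embryonic mutants and 9.59, 9.88 and 9.95 in embryonic wild types. It was 3.71-fold higher in adult mutants (log2 difference 1.89) and 2.58-fold higher in adult wild types (1.37, SE 0.15, adjusted p = 4e-06). Without probe sets marked as matching several transcripts, its value in wild types was 2.10. Ncoa2 was 1.30-fold higher in adult wild types (0.38, adjusted p = 0.023) on the probe set used, and the value turned to -0.33 when its probe sets were averaged. The Ncoa2 call was also lost without adult wild type 1 or 2 or embryonic wild type 2 or 3 (0.31 to 0.38). Ncoa3 did not pass the test in wild types (-0.22, 95% interval -0.49 to 0.04, adjusted p = 0.11), and passed without embryonic wild type 2 (-0.34). In mutants Ncoa3 did not pass either (-0.27, adjusted p = 0.061 by limma). It passed there in 5 of 26 alternatives, with values from -0.36 to -0.21 over all 26.

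Bromodomain readers were lower in adult wild types for 3 of 5 genes and higher for 1, where 43.0% of all genes were lower and 38.4% higher. Brd7, a subunit of the PBAF remodeller, had 8.54, 8.62 and 8.38 in adult mutants and 8.49, 8.33 and 8.36 in adult wild types, against 10.52, 10.45 and 10.47 in embryonic mutants and 10.41, 10.49 and 10.4 in embryonic wild types (4.11-fold lower in adult wild types, log2 difference -2.04, SE 0.09, adjusted p = 2.1e-09). Brd9, a bromodomain subunit of a different BAF-type remodeller, was 1.31-fold higher (0.39, adjusted p = 0.0035). The BET family protein Brd3 was 3.71-fold lower (7.84 ± 0.10, against 9.73 ± 0.08 in embryonic wild types, n = 3 each, adjusted p = 1e-08), while Brd2, also of the BET family, did not pass (9.66 ± 0.09, against 9.89 ± 0.08, -0.23, 95% interval -0.49 to 0.04, adjusted p = 0.10). On the mean of its probe sets Brd2 passed (-0.37). Bptf, the large subunit of the NURF remodeller, did not pass in mutants (-0.29, adjusted p = 0.14) and was 1.44-fold lower in adult wild types (-0.53, adjusted p = 0.014). Without embryonic wild type 2 the wild-type call was lost (-0.45). In mutants Bptf passed in 4 alternatives, with -0.43 without adult mutant 1, -0.34 with array weights, -0.37 over the mean of its probe sets and -0.74 without probe sets marked as matching several transcripts. On the probe sets used it was the 1 member called in wild types and not in mutants, and the difference between those differences did not pass (0.24, adjusted p = 0.94).

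Corepressors had the lowest median of the role groups with more than 1 measured gene, -1.91 over 6 genes in wild types. Mta2, a subunit of NuRD, had 7.65, 7.53 and 7.57 in adult mutants and 7.37, 7.53 and 7.57 in adult wild types, against 9.45, 10.16 and 10.42 in embryonic mutants and 9.89, 9.66 and 10.25 in embryonic wild types. It was 5.44-fold lower in adult wild types (log2 difference -2.44, SE 0.22, adjusted p = 9e-07). Rcor1, the scaffold of the CoREST complex, was 4.65-fold lower (8.12, 8.02 and 7.96, against 10.19, 10.33 and 10.24 in embryonic wild types, -2.22, SE 0.14, adjusted p = 4.1e-08). Without probe sets marked as matching several transcripts, the Rcor1 difference was -1.37. The SIN3 scaffolds Sin3a (-1.97, 3.91-fold lower, adjusted p = 5.5e-08) and Sin3b (-1.86, 3.63-fold lower, adjusted p = 9.4e-08) were also lower, as were the NuRD subunits Mta1 (-1.80, 3.49-fold lower, adjusted p = 2e-07) and Mta3 (-0.92, 1.89-fold lower, adjusted p = 0.0014) on the probe sets used.

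The stage differences of mutants and wild types come from different arrays and can be set side by side. They share the probe set of each gene, the estimate of the spread and the split of stages by array set. Agreement between them is therefore not an independent repeat. In mutants 29 of 35 members passed between the stages (82.9%, against 81.7% of all genes), 11 higher and 18 lower in adults, where 39.5% of all genes were higher and 42.2% lower. These 29 had passed in the same direction in wild types. The arrays of the stages did not overlap in mutants for 30 members (85.7%, against 82.2% of all genes). The sign was the same for 33 members. The other 2, Kat2a (0.13 in mutants and -0.14 in wild types) and Brd2 (0.17 and -0.23), passed in neither genotype. The mutant value of Kat2a passed with array weights (0.19) and turned to -0.05 when its probe sets were averaged. That of Brd2 passed with array weights and without embryonic mutant 3 (0.28 in each) and turned to -0.14 without probe sets marked as matching several transcripts. The median was -0.44 in mutants and -0.54 in wild types. The actin control for RNA quality was also higher on every adult array (1.06 to 1.91) than on any embryonic array (0.71 to 1.03). On the Gapdh control the stages overlapped (-0.15 to 0.26 in adults, -0.19 to -0.03 in embryos). The part of RNA quality in the stage differences was not tested.

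Probe sets of a gene can read different parts of its transcripts. Of the 17 tested members with more than 1 probe set past the filter, 6 had probe sets of opposite sign between the wild-type stages, and for 5 of these probe sets passed the test both ways. On the probe set used, Crebbp was lower in adults (-0.73), and a second one had 9.26, 9.12 and 9.26 in adult wild types, against 8.3, 8.63 and 8.62 in embryonic wild types, a higher level in adults (0.69, adjusted p = 0.00028 over 20292 probe sets). Sin3b was lower on 3 probe sets (-1.86, -1.72 and -1.51) and higher on 1, with 7.24, 7.59 and 7.59 in adult wild types against 5.88, 6.49 and 6.55 in embryonic wild types (1.17, adjusted p = 0.0064). Bptf was lower on 3 probe sets (-0.53, -0.71 and -1.17) and higher on 1 (0.76, adjusted p = 0.0013). Ncoa2 was higher on the probe set used (0.38) and lower on the other 2 (-0.93 and -0.44). Kat2b read -0.22 and 0.27, and neither passed. Where these probe sets lie within the transcripts was not analysed here, so a change of transcript form and a poor probe set cannot be told apart.

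The 2 probe sets of Mta3 ran in opposite directions. The one used was lower in adult wild types (6.25, 6.3 and 6.23, against 6.97, 7.17 and 7.4 in embryonic wild types), and the other was higher (6.98, 7.09 and 7.17, against 5.8, 5.79 and 5.74, log2 difference 1.30, adjusted p = 8.4e-06). This second probe set was also lower in mutants at both stages. It measured 6.31, 6.25 and 6.79 in adult mutants against 6.98, 7.09 and 7.17 in adult wild types, and 5.32, 5.13 and 4.94 in embryonic mutants against 5.8, 5.79 and 5.74 in embryonic wild types. The groups did not overlap at either stage, and the difference was -0.63 in adults (adjusted p = 0.59) and -0.64 in embryos (adjusted p = 0.36), past the test at neither. Such an order at both stages was found for 1 of 64 member probe sets (1.56%) and for 16 of all 20292 (0.0788%), and this probe set was singled out after its values were seen. The probe set used for the gene gave -0.33 in adults and -0.01 in embryos.

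**Figure D3:**
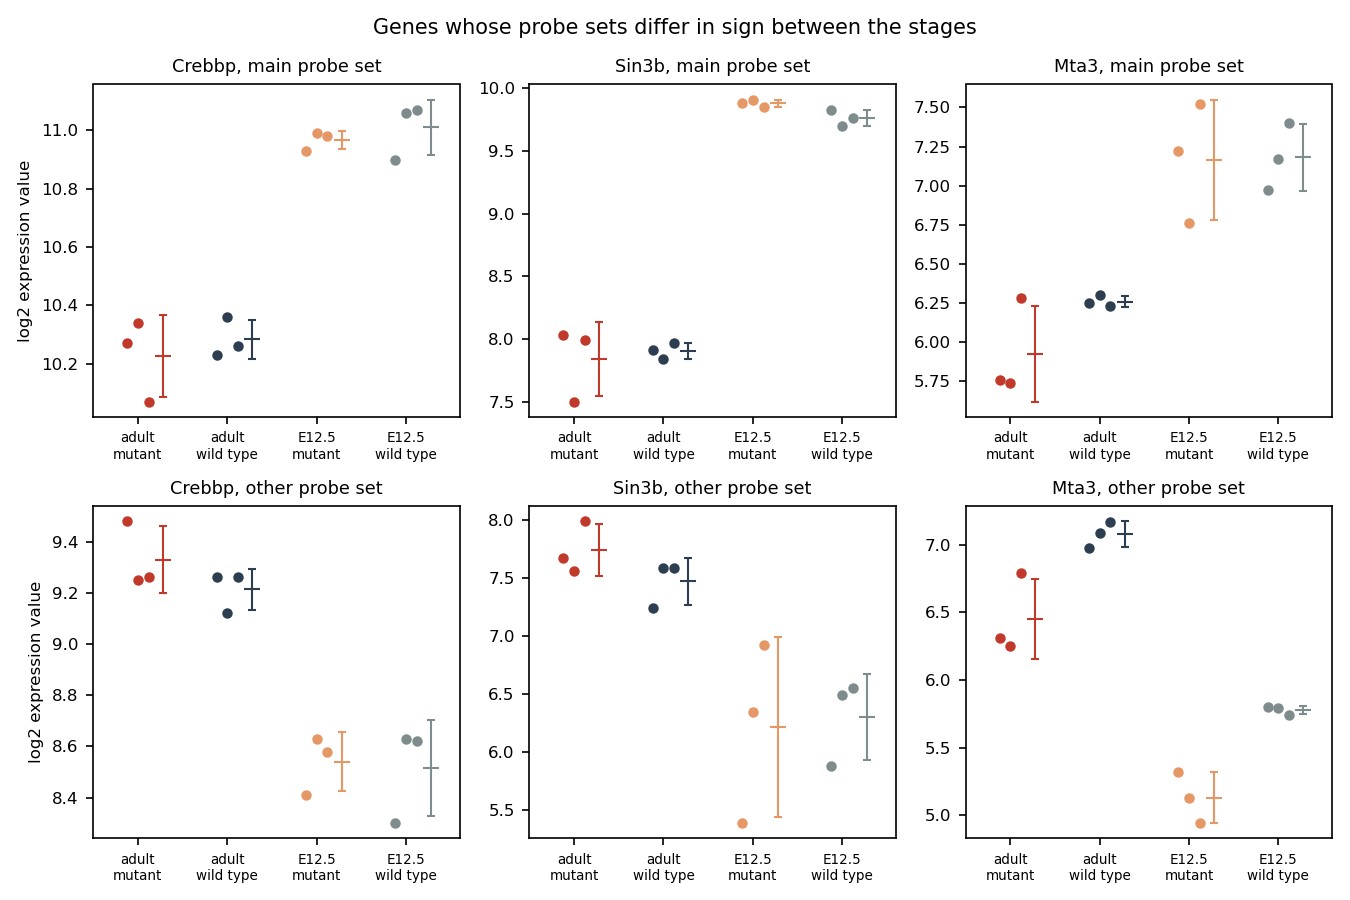
Log2 expression value on each array for the main and a second probe set of Crebbp, Sin3b and Mta3, in adult Kat6b mutants, adult wild types, E12.5 mutants and E12.5 wild types. Points are arrays, bars are mean and SD (n = 3), and vertical axes differ and do not start at zero. The main probe sets are lower in adults and the second ones higher, and on the second probe set of Mta3 the mutants lie below the wild types at both stages.

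The study's own question, the effect of Kat6b loss, gave 0 calls among these genes. In adult cortex 0 of 35 members passed (0.0524% of all genes did), and 3 had an unadjusted p under 0.05 by limma, where 4.54% of all genes had one. Differences were positive for 23 and negative for 12, with a median of 0.07 against 0.03 over all genes, of which 58.9% were positive. With quantile normalization 21 were positive, 14 were negative, 1 had an unadjusted p under 0.05, and 51.3% of all genes were positive. On the probe sets used the 95% intervals of the members lay between -0.78 and 1.0. A change of 2-fold or more upward or downward thus lies outside the interval for all members but Hdac4, whose upper bound is 1.0.

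On the probe sets used, the 3 adult members with the lowest p were a reader, an acetyltransferase and a class IIa deacetylase. Over all 64 member probe sets 6 had an unadjusted p under 0.05 by limma, 5 higher and 1 lower in mutants, and 0 passed. That share was not counted over all probe sets. The lowest p there was that of the second Mta3 probe set (values above). Brd2 had 10.19, 9.94 and 9.93 in adult mutants against 9.74, 9.56 and 9.68 in adult wild types, without overlap (log2 difference 0.36, 95% interval 0.09 to 0.62, adjusted p = 1.0). Kat2a had 9.8, 9.71 and 9.64 against 9.49, 9.45 and 9.52, again without overlap (0.23, 0.02 to 0.44, adjusted p = 1.0). Hdac4 had 7.68, 7.87 and 7.32 against 7.07, 7.11 and 7.15 (0.51, 0.02 to 1.0, adjusted p = 1.0), with a difference of 0.31 over the mean of its probe sets. Next came Mta1 (0.30, and 0.14 without mutant 1), Brd3 (0.22, and 0.06 over the mean of its probe sets) and Rcor1 (0.26, with 0.11 without mutant 2 and 0.43 without mutant 3), with intervals that include zero. Mutant and wild-type arrays did not overlap for 4 members, Hdac4, Hdac5, Kat2a and Brd2, all higher in mutants (11.4%, against 9.39% of all genes without overlap and 6.73% without overlap and higher). Adult mutants 1 and 2 were also the arrays with the highest actin control values, 1.91 and 1.47. On the Gapdh control they had 0.26 and -0.06, against -0.15 to -0.08 on the other adult arrays. Adult mutant 3 stood apart in markers of choroid plexus and hem, with a mean of 7.34 over 5 markers against 5.43 to 5.69 on the other 5 adult arrays. The part of RNA quality and of these markers in the differences was not tested.

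In embryonic telencephalon 0 of 35 members passed between the genotypes (0.0349% of all genes did). On the probe sets used 0 had an unadjusted p under 0.05 by limma, where 4.51% of all genes had one. Over all 64 member probe sets 1 had one, the second of Mta3 (-0.64, unadjusted p = 0.0013 and adjusted p = 0.36 by limma). Differences were positive for 12 and negative for 23, with a median of -0.03 against -0.01 over all genes, of which 46.1% were positive. With quantile normalization 15 members and 49.9% of all genes were positive. Rcor1 had the lowest p, with 9.93, 9.93 and 9.99 in mutants against 10.19, 10.33 and 10.24 in wild types (log2 difference -0.30, 95% interval -0.62 to 0.01, adjusted p = 1.0), and -0.01 without probe sets marked as matching several transcripts. Ncoa1 (-0.25) and Ncoa2 (-0.23) followed, and then Hdac9 (-0.32), Sirt1 (-0.22) and Ep300 (-0.17), with intervals that include zero. The Ncoa1 value was -0.04 without the probe sets marked in that way, and without mutant 3 Ncoa2 stood at -0.12, Hdac9 at -0.21 and Sirt1 at -0.11. Ep300 had 10.13, 10.25 and 10.07 in mutants against 10.27, 10.38 and 10.3 in wild types, and these arrays did not overlap. Arrays of the genotypes did not overlap for 5 members (14.3%, against 8.29% of all genes): Sin3b was higher, where 3.23% of all genes were, and Hdac9, Ep300, Ncoa2 and Rcor1 were lower in mutants, where 5.06% were. The 95% intervals on the probe sets used lay between -0.77 and 0.75.

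**Figure D4:**
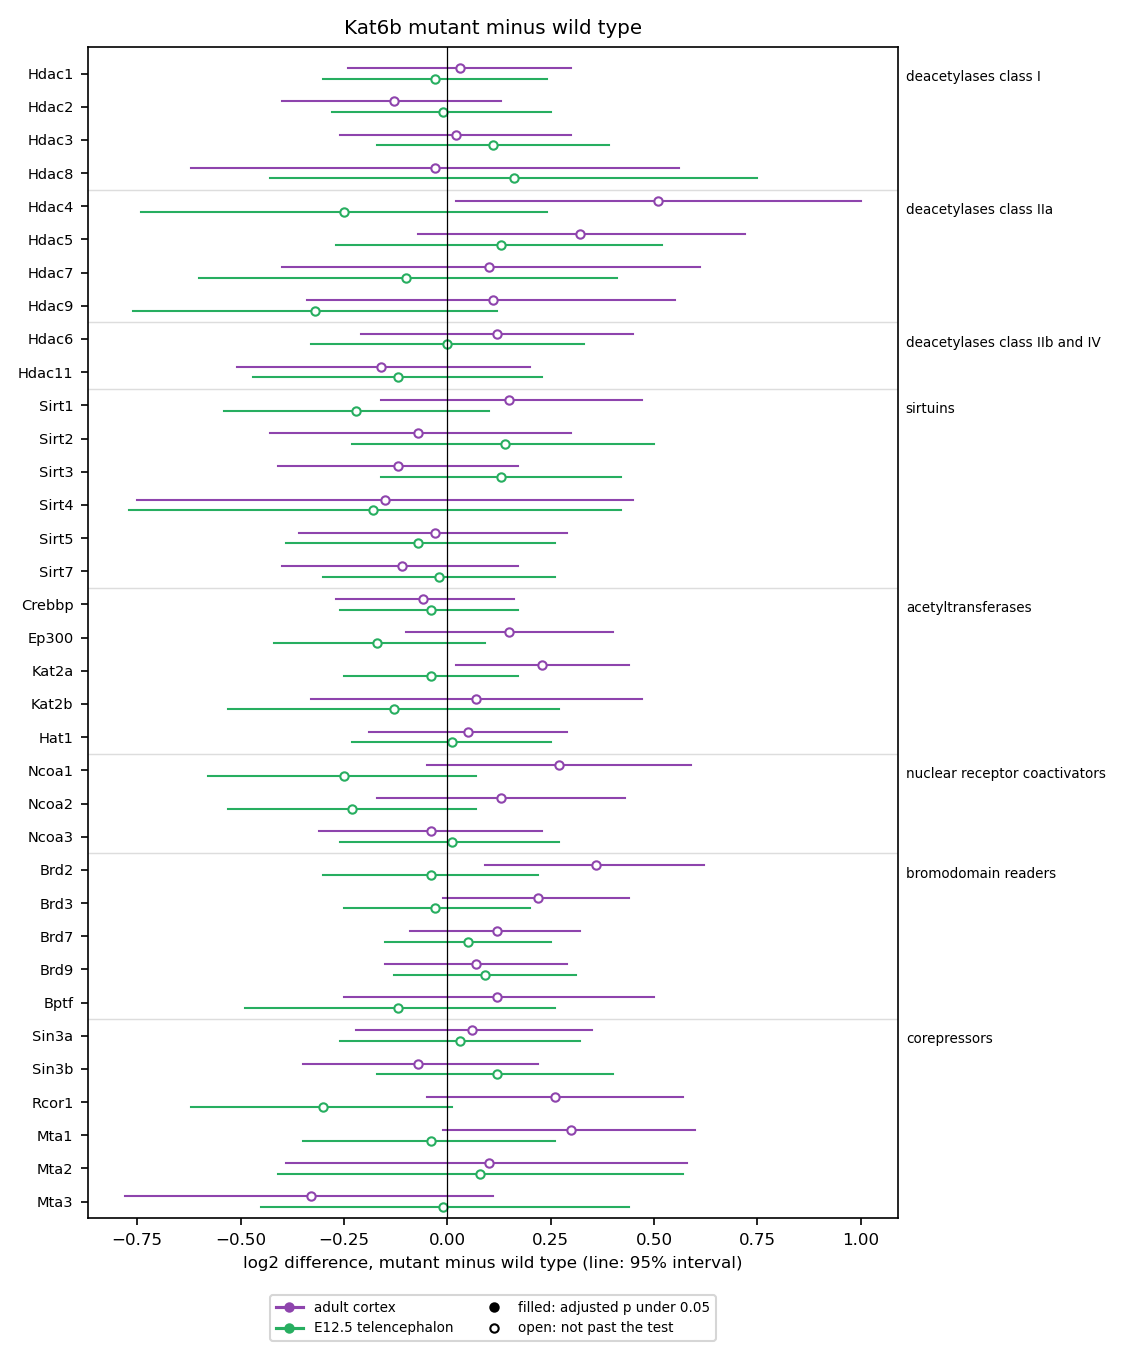
Log2 difference, Kat6b mutant minus wild type, of the 35 tested members in adult cortex (purple) and E12.5 telencephalon (green). Points are limma estimates and lines are 95% intervals. All points are open, since 0 members passed an adjusted p under 0.05 at either stage, and all lie between -0.33 and 0.51.

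The difference between the stages in the mutant effect passed for 0 members and for 0.0% of all genes. An unadjusted p under 0.05 by limma was found for 4 members, where 5.5% of all genes had one. Rcor1 differed between the genotypes by 0.26 in adults and -0.30 in embryos (difference between the effects 0.56, 95% interval 0.12 to 1.0, adjusted p = 0.86). For Ncoa1 that difference was 0.52 (0.07 to 0.98, adjusted p = 0.87), which turned to -0.03 without probe sets marked as matching several transcripts. Hdac4 (0.76, and 0.50 without embryonic mutant 1) and Brd2 (0.40) followed (adjusted p = 0.88 for both), then Kat2a (0.27, and 0.17 without the first cross) and Ep300 (0.31). With 3 arrays a group these p-values measure the spread between arrays, each of a single adult mouse by label, while the labels do not give the number of embryos per array.

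Partners of these enzymes and readers were taken from 9 lists of complexes and pathways with 118 genes, of which 103 were tested. Between the stages 87 passed in mutants (84.5%, against 81.7% of all genes), 24 higher and 63 lower in adults. In wild types 83 passed (80.6%, against 81.4% of all genes), 19 higher and 64 lower, with a median of -0.79. The mutant effect passed for 0 of the 103 at either stage, with an unadjusted p under 0.05 by limma for 6 in adults, all higher, and 2 in embryos, both lower, where 4.54% of all genes in adults (394 of 520 higher) and 4.51% in embryos had one.

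The counts of each list are to be read against all genes in wild types, of which 81.4% passed, 38.4% higher and 43.0% lower in adults, with a median of -0.08. Genes of the CoREST complex, which Rcor1 scaffolds and Hdac1 and Hdac2 serve, were lower in adults for 9 of 11 and higher for 0 in wild types (81.8% called, median -1.92). Rest, the repressor of neuronal genes that recruits CoREST, averaged 4.31 ± 0.33 in adult and 8.69 ± 0.13 in embryonic wild types (n = 3 each, log2 difference -4.38, adjusted p = 2.5e-10). Rcor2, a paralog of Rcor1, averaged 2.41 ± 0.11 in adult wild types, which lies near the floor, against 7.83 ± 0.18 in embryonic wild types (n = 3 each, adjusted p = 2.4e-10). In the SIN3 complex 7 of 14 were lower and 3 higher (71.4% called, median -0.42), with Sap30 at 7.39 ± 0.14 in adult against 11.86 ± 0.15 in embryonic wild types (n = 3 each, 22.3-fold lower), Ing1 at -1.24, and Ing2 (0.82) and Brms1l (0.94) in the other direction. The 8 genes of NuRD divided into 4 lower and 3 higher (87.5% called, median -0.85). Gatad2a (-2.52) and Cdk2ap1 (-1.63) were lower, while Chd5, a remodeller of NuRD known from neurons, was higher in adults (9.81 ± 0.13, against 4.53 ± 0.34 in embryonic wild types, n = 3 each, adjusted p = 1.5e-10). Its values were 4.33 to 4.35 on 5 of 6 embryonic arrays, a repeated low value of that probe set, so no fold is given. The methyl-CpG-binding subunit gene Mbd2 was higher on the probe set used (1.35), and over the mean of its probe sets it did not pass (0.35, adjusted p = 0.20). Of 3 measured NCoR and SMRT genes Gps2 (-1.66) and Tbl1x (-1.21) were lower.

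SAGA and ATAC partners of Kat2a and Kat2b were lower in adults for 15 of 22 and higher for 1 (72.7% called, median -0.87), although the 2 enzymes themselves did not pass. Eny2 (-2.77, and -1.08 over the mean of its probe sets) and Sgf29 (-2.30) had the largest decreases, and Atxn7l3, of the deubiquitinating module, was higher (1.27). Partner factors of CBP and p300 divided into 4 lower and 2 higher of 8 (75.0% called, median -0.38). Creb1, the cAMP-responsive factor that recruits CBP, was 2.43-fold lower in adults (9.19 ± 0.26, against 10.47 ± 0.15 in embryonic wild types, n = 3 each, adjusted p = 2.8e-05), and the methyltransferase gene Carm1 was lower as well (-0.93). Crtc1, a coactivator of CREB in neurons, was higher (7.68 ± 0.19, against 5.26 ± 0.25, n = 3 each, adjusted p = 4.5e-08), with a repeated low value of 5.39 to 5.40 on 5 of 6 embryonic arrays and so no fold. Crem was higher as well (1.46).

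The other acetyl-lysine readers were lower in adults for 17 of 22 and higher for 2 (86.4% called, median -1.43). Baz1a, a subunit of ISWI remodellers, averaged 2.71 ± 0.01 in adult wild types, near the floor, against 9.13 ± 0.03 in embryonic wild types (n = 3 each, adjusted p = 2e-13), and Atad2, known from dividing cells, was 21.8-fold lower in adults (6.13 ± 0.11, against 10.58 ± 0.04 in embryonic wild types, n = 3 each, adjusted p = 1.3e-09). Zmynd8 was higher (0.54), and so was Brdt, known as the testis member of the BET family, at 7.13 ± 0.12 in adult and 3.71 ± 0.39 in embryonic wild types (n = 3 each, adjusted p = 6.2e-09), whose embryonic mean is below the filter of 4. In the supply of acetyl-CoA and NAD 5 of 12 were higher and 6 lower (91.7% called, median -0.28). Among the NAD-making enzymes Nmnat2, known from axons, was higher in adults (9.76 ± 0.11, against 5.76 ± 0.15 in embryonic wild types, n = 3 each, adjusted p = 1e-09), and the nuclear Nmnat1 was lower (4.43 ± 0.03, against 6.45 ± 0.14, n = 3 each, adjusted p = 5.7e-07). Nmnat1 had a repeated low value of 4.41 on 3 of 6 adult arrays, and no fold is given. Parp1, a consumer of nuclear NAD, was lower (-2.13), and the pyruvate dehydrogenase gene Pdha1 was higher (1.49). Markers of cycling cells were lower and markers of mature neurons higher on adult arrays (values above), and their part in these differences was not tested.

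**Figure D5:**
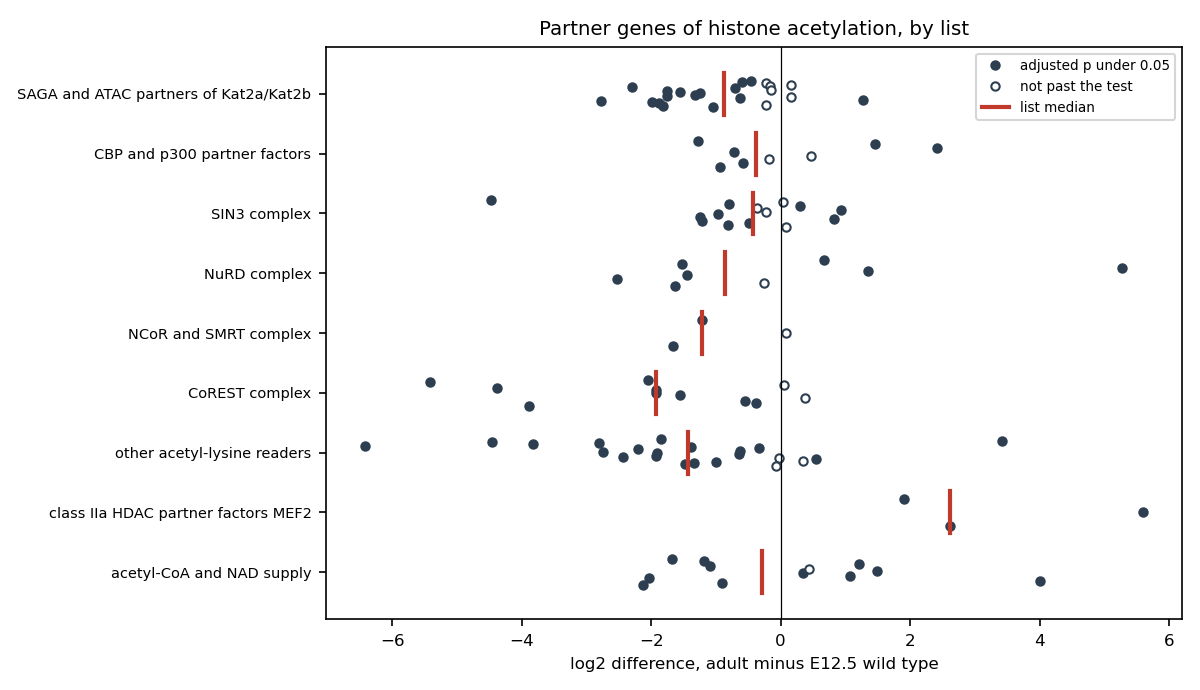
Log2 difference, adult cortex minus E12.5 telencephalon in wild types, of 103 partner genes in 9 lists. Each point is a gene, filled where the adjusted p was under 0.05, and the red line is the median of the list. The lists of CoREST genes and of other acetyl-lysine readers have medians of -1.92 and -1.43, and the 3 MEF2 genes lie right of zero.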

How the data were processed

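RNA of 12 mouse samples, 3 in each of 4 groups, was measured on Affymetrix arrays of 45101 probe sets after 2 cycles of amplification and biotin labelling, per the labels' protocols. The deposited values are log2 expression values, and the submitters' processing notes name GCRMA, a background and normalization method, whose version and settings were not stated there. The log2 scale was read from the range of the values. They were used as deposited, and arrays carry no counts, so that their number limits the precision.

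Gene names came from GEO's platform annotation, with symbols updated through the gene ID for 34754 of them. Of all probe sets 34945 had 1 symbol, 932 had several, 9160 had none and 64 were controls. Those with 1 symbol and a log2 value over 4 on at least 3 arrays (20292) were kept, and the one with the highest mean stood for a gene (11449 genes). limma (version 3.58.1 in R 4.3.3, lmFit and eBayes) was fitted over all 12 arrays with 4 group means and 8 residual degrees of freedom, and p-values were adjusted by Benjamini-Hochberg over all genes. A gene was called at an adjusted p under 0.05. The fit was tested on simulated data. Intervals are 95% intervals of limma, and fold sizes are 2 to the power of the log2 difference. The array sets are those that the array names in the labels show, with embryonic mutant 1 in a later one than the other embryos.

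The design speaks of pairs. Deviations from the group mean, across genes, correlated at 0.19, -0.01 and 0.27 in the adult age pairs, and at -0.3 to 0.23 between adults of different pairs. For embryos they correlated at 0.51 in the first cross, at 0.14 to 0.25 in the second, and at -0.36 to -0.23 between crosses. Deviations cancel out within a group, so a positive value with some arrays forces a negative one with others. The crosses come from the parents in the labels. Age pair and cross entered an alternative as a block. Further alternatives were other filters, other choices of probe set, median and quantile scaling, fits of the compared groups alone, array weights, a trended robust variance, a covariate for the Xist pattern of embryos, fits without the first cross, and leaving out each array.

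The members and lists were chosen with earlier results of these data known. Named are, for each mutant contrast, the 6 members with the lowest p. For the stages they are the 10 largest differences past the test each way and each member not past it, and the other members, named with their values in view, follow by role group. Members whose probe sets differ in sign are named too, and the 2 largest partner genes each way per list.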

Additional observations from a re-analysis of the deposited data

How the results depend on the processing

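The counts of members called were run under 28 settings in all, the main one included (27 for the difference between the stages in the mutant effect, where leaving out the other groups cannot be run). The mutant contrasts and the difference between them gave 0 calls in each. The mutant stages gave 26 to 34 calls and the wild-type stages 27 to 32. Leaving out single arrays gave 28 to 30 calls in mutants and 29 to 30 in wild types between the stages, and 0 in the mutant contrasts. With age pair and cross as a replicate block 0 members were called in the mutant contrasts, 29 in the mutant stages and 31 in the wild-type stages. The partner genes gave 80 to 85 calls between the wild-type stages. Between the stages Hdac7 was called in 1 alternative in mutants and 4 in wild types, and the call of Mbd2 was lost with the mean of its probe sets (0.35). Signs turned without probe sets marked as matching several transcripts for Sin3b (1.52 in mutants and 1.17 in wild types between the stages), Kat2b (0.19 in mutants and 0.27 in wild types), Mta3 (1.32 in mutants and 1.30 in wild types), Brd2 (-0.14 in mutants) and Ncoa1 (-0.03, difference between the effects). With the mean of probe sets they turned for Kat2b (0.08 in mutants and 0.02 in wild types), Mta3 (0.04 in mutants and 0.19 in wild types), Crebbp (0.06 in mutants), Ncoa2 (-0.33 in wild types) and Kat2a (-0.05 in mutants). The near-zero mutant value of Kat2b also turned with the sex pattern (0.01), without adult mutant 3 (0.17) and without embryonic mutant 2 (0.08). The cause of these turns was not tested. Values near the floor and the 3 arrays per group limit what could be detected.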
